A study of Mus musculus with 12 samples.

Results

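Transcripts of 10 genes of the histone H3K4 methyltransferase complexes were measured in dissected CA1 tissue of the mouse hippocampus. The genes were taken by name and matched to Ensembl IDs through the GENCODE M21 annotation (mm10): the 6 catalytic genes Kmt2a, Kmt2b, Kmt2c, Kmt2d, Setd1a and Setd1b, and the 4 genes of the core that all 6 enzymes share, Wdr5, Ash2l, Rbbp5 and Dpy30. All 10 were among the 48709 gene IDs of the count files, and all 10 were among the 16829 genes that passed the filter on low counts. The study compared 6 libraries from mice with myocardial infarction by coronary artery ligation (MI) with 6 libraries from mice that had the same surgery without ligation (Sham). No source used here gave strain, genotype, age or the time after surgery. The labels also leave unsaid how many animals stand behind the libraries, and the p-values therefore measure the spread between these libraries, which may be technical. Polyadenylated RNA was sequenced as single-end reads.

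H3K4 methyltransferases place methyl groups on lysine 4 of histone H3, a mark of active or poised promoters and enhancers. Kmt2a and Kmt2b mainly act at promoters and Kmt2c and Kmt2d mainly at enhancers, while Setd1a and Setd1b make much of the trimethyl mark at active promoters. Each enzyme needs the core of Wdr5, Rbbp5, Ash2l and Dpy30 for full activity, and mice that lack Kmt2a or Kmt2b in forebrain neurons have impaired memory. The study set out from memory loss in heart failure, by its title, and the question here is whether the transcripts of these enzymes differ in CA1 after MI.

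The promoters are shown because Kmt2a, Kmt2b and Cxxc1, a partner of the Setd1 enzymes, bind unmethylated CpG through CXXC domains. The first 2 windows shown, those of Kmt2a and Kmt2d, belong to genes whose levels moved together across libraries. The RefSeq table (GRCm38.p6) held windows from 250 bases before to 50 after the start for 7 of the 10 genes, all but Kmt2b, Setd1b and Ash2l. The capitals mark each CG.
Kmt2a (- strand, chr9:44881240-44881539): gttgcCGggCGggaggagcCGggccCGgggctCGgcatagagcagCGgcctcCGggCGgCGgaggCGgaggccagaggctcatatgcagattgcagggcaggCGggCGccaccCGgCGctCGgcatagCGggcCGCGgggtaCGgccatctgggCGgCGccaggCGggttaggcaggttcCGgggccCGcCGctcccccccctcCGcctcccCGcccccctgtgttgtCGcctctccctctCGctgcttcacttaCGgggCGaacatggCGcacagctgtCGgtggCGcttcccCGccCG
Kmt2d (- strand, chr15:98871156-98871455): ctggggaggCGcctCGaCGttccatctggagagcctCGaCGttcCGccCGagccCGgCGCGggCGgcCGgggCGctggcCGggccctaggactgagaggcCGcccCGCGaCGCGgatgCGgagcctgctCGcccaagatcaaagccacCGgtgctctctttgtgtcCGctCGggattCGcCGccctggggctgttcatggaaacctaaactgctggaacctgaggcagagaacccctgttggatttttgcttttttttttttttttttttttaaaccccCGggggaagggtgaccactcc
Kmt2c (- strand, chr5:25498734-25499033): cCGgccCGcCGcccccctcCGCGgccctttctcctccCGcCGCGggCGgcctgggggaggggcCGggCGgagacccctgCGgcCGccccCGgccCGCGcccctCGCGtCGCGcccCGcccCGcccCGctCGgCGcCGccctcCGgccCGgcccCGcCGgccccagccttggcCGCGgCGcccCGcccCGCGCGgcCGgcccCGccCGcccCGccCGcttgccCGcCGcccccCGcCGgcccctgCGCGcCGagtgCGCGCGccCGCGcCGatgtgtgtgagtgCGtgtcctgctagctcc
Rbbp5 (+ strand, chr1:132477117-132477416): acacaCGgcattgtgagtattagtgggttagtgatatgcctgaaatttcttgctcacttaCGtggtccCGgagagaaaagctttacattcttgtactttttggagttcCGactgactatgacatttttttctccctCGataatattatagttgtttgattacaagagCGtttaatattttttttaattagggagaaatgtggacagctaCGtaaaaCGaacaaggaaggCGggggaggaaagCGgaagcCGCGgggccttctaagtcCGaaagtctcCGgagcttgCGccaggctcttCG
The 300-base Kmt2c window held 56 CG, at percentile 99.8 of the 32851 promoter windows in the table, whose median was 7. Kmt2a held 36, Setd1a 35, Kmt2d 27, Wdr5 22 and Rbbp5 16. Dpy30 had 4 annotated starts, whose windows held 1, 30, 34 and 39. The letters CCGGAAG, a core of ETS sites, and GCGCATGC, a core of NRF1 sites, were found on neither strand in the windows of these 7 genes; 8.86% and 2.71% of all windows held them.

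Library totals ran from 21364928 to 33614313 counts in MI and from 20764133 to 35643127 in Sham. The lowest count of any member in any library was 244, for Dpy30, and the highest was 11672, for Kmt2a. The tissue label was checked against CA1 pyramidal markers, all 10 of which were detected with a summed level of 1277 to 1559 CPM (counts scaled to a common library total by edgeR's TMM method) in MI and 818 to 1784 in Sham. Markers of neighbouring tissue varied between libraries: 9 dentate markers summed to 183 to 546 CPM in MI and 222 to 1268 in Sham, and 10 fibroblast and meningeal markers to 160 to 272 in MI and 123 to 429 in Sham. The dentate marker score, the mean log2 CPM of these markers as a deviation from the mean of 12 libraries, ran from -1.64 to 0.97 in MI. In Sham it was 2.25 in Sham 6 and from -1.32 to 0.48 in the other libraries. With Sham 6 included, the 9 dentate markers were all lower in MI (median log2 fold change -0.46), 0 of them at an unadjusted edgeR p under 0.05. So were 9 of the 10 fibroblast and meningeal markers (median -0.83), 4 of them at that p. The exception, Fn1, averaged 135 CPM in MI and 109 in Sham, much of the sum. Of 12 myelin markers, all with a positive fold change (median 0.50 on the log2 scale) and all at an unadjusted p under 0.05, the sum was 5361 to 6762 CPM in MI and 2915 to 5916 in Sham. With the myelin score as a covariate 0 of 10 genes were called, and the log2 fold change, MI minus Sham, was -0.29 for Kmt2c (SE 0.15, edgeR adjusted p 0.973) and -0.15 for both Kmt2a and Kmt2d. With the dentate and meningeal scores 0 of 10 were called, and Kmt2d was at -0.14. In bulk tissue, fewer cells of a type and less RNA per cell cannot be told apart.

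None of the 10 genes was called between MI and Sham. By the quasi-likelihood test of edgeR, adjusted by Benjamini-Hochberg over 16829 genes, 0 of 10 members passed an adjusted p of 0.05, where the share over all genes was also 0%, and 0 of 10 had an unadjusted p under 0.05, where the share over all genes was 7.55%. DESeq2 and limma-voom also called 0 of 10. The log2 fold changes, MI minus Sham, ran from -0.08 for Kmt2d to 0.03 for Kmt2b. They were positive for 3 genes and negative for 7, where 47.6% of all genes were positive and 52.4% negative, with a median of -0.02 over the 10 genes and -0.01 over all genes, and adjusted p ran from 0.836 to 0.985. The ranges of the groups overlapped for 10 of 10 genes; over all genes 0.41% did not overlap. The 95% interval of the fold change lay within 15% of no change for 8 genes and within 20% for 9, Kmt2c being the exception, from -20.4% to 14.7% (-0.33 to 0.20 on the log2 scale).

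**Figure D1:**
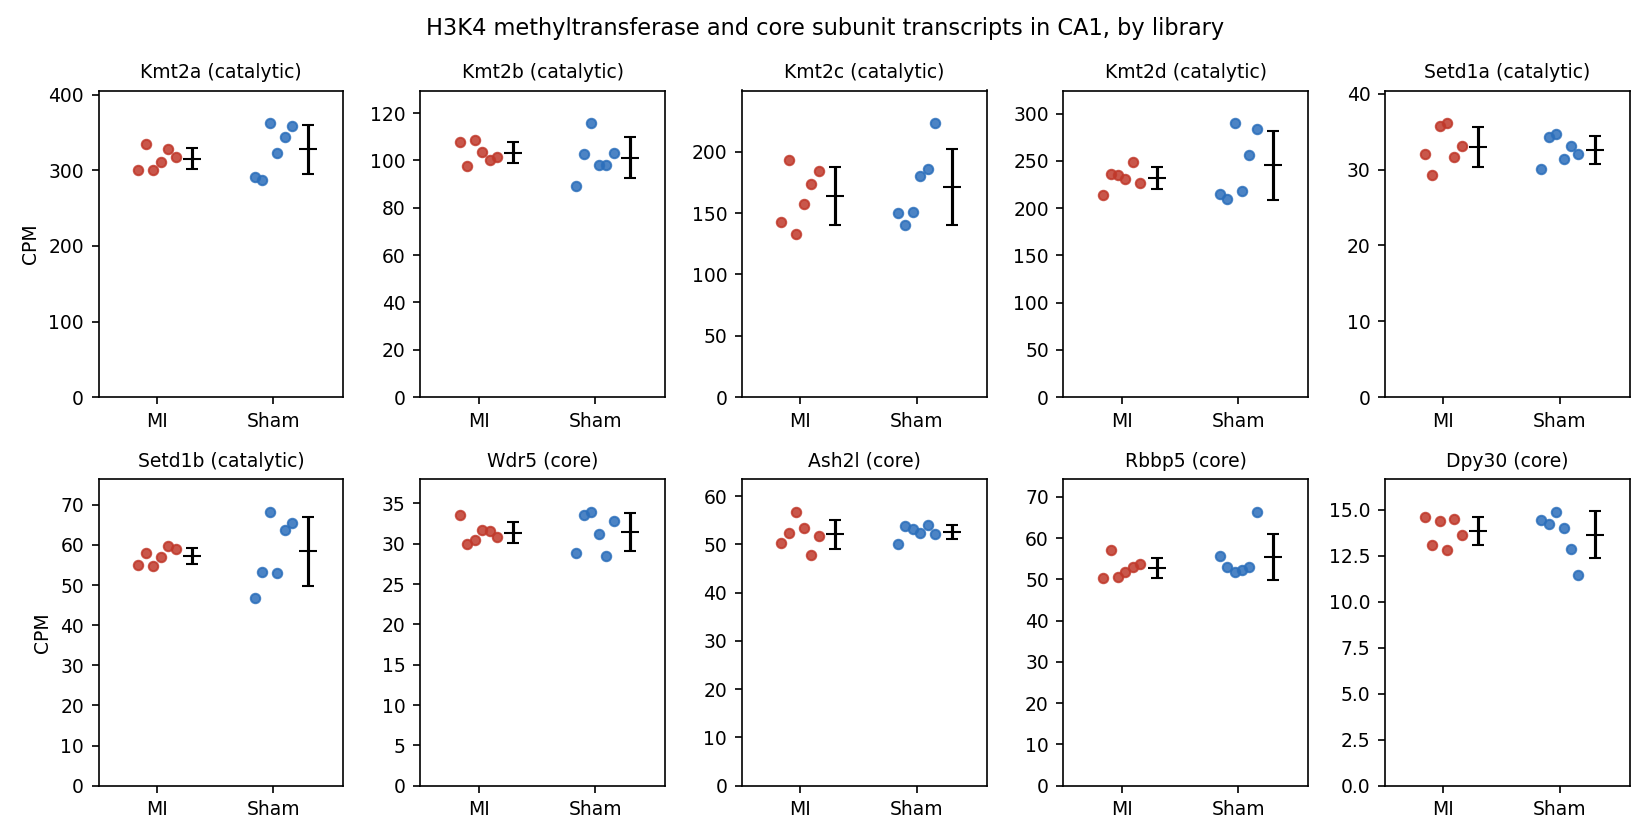
Level of each gene in CPM (vertical axes, from 0) in the 6 MI and 6 Sham libraries; points are libraries in order of replicate number, and the bar beside each group is the mean ± SD. The MI and Sham points overlap in every panel, and Kmt2d and Setd1b spread more widely in Sham than in MI.

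Among the promoter-acting enzymes, Kmt2a, the founding member of the mixed-lineage leukaemia family (ENSMUSG00000002028, chromosome 9, 44803355 to 44881296, minus strand), had the highest level of the 10. Its lowest, median and highest values were 299.9, 314 and 334 CPM in MI, against 287, 333 and 362 CPM in Sham. Only 1 of 6 MI libraries lay above the Sham median, but Sham 1 and Sham 2 lay below all MI libraries. Kmt2a averaged 315 ± 14.2 CPM in MI libraries and 328 ± 32.8 CPM in Sham libraries (SD, n = 6 each), which gave a log2 fold change of -0.06 (SE 0.07, 95% interval -0.20 to 0.09, edgeR adjusted p 0.894). Kmt2b, its closest relative (ENSMUSG00000006307, chromosome 7, 30568858 to 30588726, minus strand), had 97.7, 103 and 109 CPM in MI, against 89.0, 101 and 116 in Sham. The MI values lay inside the Sham range, with a log2 fold change of 0.03 (SE 0.06, 95% interval -0.09 to 0.15, edgeR adjusted p 0.937).

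The enhancer enzymes had the highest biological coefficients of variation of the 10 genes as fitted by edgeR, 15.2% for Kmt2c and 11.4% for Kmt2d, where the median of all genes was 11.3%. Within MI libraries alone the coefficient of variation of Kmt2d, 4.97%, was below those of Setd1a, Ash2l and Dpy30. Kmt2c (ENSMUSG00000038056, chromosome 5, 25271798 to 25498783, minus strand), a monomethyltransferase, had 133, 166 and 193 CPM in MI, against 141, 166 and 223 in Sham. The group medians were nearly equal and the highest value was Sham 6. Its log2 fold change of -0.07 (SE 0.12, edgeR adjusted p 0.937) was 0.02 without Sham 6. Kmt2d, its paralog and the main Kabuki syndrome gene in humans (ENSMUSG00000048154, chromosome 15, 98831669 to 98871204, minus strand), had 214, 233 and 248 CPM in MI, against 209, 237 and 290 in Sham. Sham 3, Sham 5 and Sham 6 stood above the other Sham libraries and above all MI libraries, and 1 of 6 MI libraries lay above the Sham median. Its log2 fold change was -0.08 (SE 0.09, 95% interval -0.26 to 0.10, edgeR adjusted p 0.874), the most negative of the 10; it was -0.03 without Sham 3, -0.04 without Sham 6 and -0.12 without Sham 1 or Sham 2.

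The Setd1 genes, orthologs of the yeast Set1 enzyme, had the lowest CPM of the catalytic genes. Setd1a, a schizophrenia risk gene in humans (ENSMUSG00000042308, chromosome 7, 127776670 to 127800122, plus strand), had 29.3, 32.6 and 36.1 CPM in MI, against 30.0, 32.6 and 34.7 in Sham. Its medians were nearly equal, with a log2 fold change of 0.02 (SE 0.06, edgeR adjusted p 0.970). Of its exon bases 52.3% are shared with 2 other gene models, nearly all of them with Gm49388, a protein-coding model on the same strand for which no count was used here, so the Setd1a value is uncertain. Setd1b (ENSMUSG00000038384, chromosome 5, 123142193 to 123168629, plus strand) had 54.7, 57.5 and 59.7 CPM in MI, against 46.7, 58.6 and 68.3 in Sham. All 6 MI libraries lay inside the Sham range. Its log2 fold change was -0.03 (SE 0.08, edgeR adjusted p 0.959), 0.02 without Sham 3 and 0.0040 without Sham 6.

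The biological coefficient of variation of the core subunits ran from 6.54% for Ash2l to 9.15% for Dpy30. Wdr5, the propeller protein that docks the complex (ENSMUSG00000026917, chromosome 2, 27515157 to 27536535, plus strand), had 30.0, 31.2 and 33.6 CPM in MI, against 28.5, 32.0 and 34.0 in Sham, a log2 fold change of -0.01 (SE 0.05, 95% interval -0.12 to 0.11, edgeR adjusted p 0.985). Ash2l, which with Rbbp5 activates the catalytic SET domain (ENSMUSG00000031575, chromosome 8, 25815996 to 25847694, minus strand), had 47.8, 52.0 and 56.7 CPM in MI, against 50.1, 52.7 and 53.9 in Sham. Its Sham values had the least relative spread of the 10 genes in either group, with a coefficient of variation of 2.71%, and its log2 fold change was -0.02 (SE 0.04, 95% interval -0.11 to 0.08, edgeR adjusted p 0.959). Rbbp5 (ENSMUSG00000026439, chromosome 1, 132477365 to 132505659, plus strand) had 50.3, 52.4 and 57.0 CPM in MI, against 51.8, 53.0 and 66.4 in Sham. Sham 6 alone stood above 57.0, the highest MI value. The log2 fold change was -0.07 (SE 0.06, edgeR adjusted p 0.836) and -0.01 without Sham 6. Dpy30, the small subunit that binds Ash2l (ENSMUSG00000024067, chromosome 17, 74299474 to 74323944, minus strand), had 12.8, 13.99 and 14.6 CPM in MI, against 11.5, 14.1 and 14.9 in Sham, where Sham 6 was the lowest. Its log2 fold change was 0.02 (SE 0.07, edgeR adjusted p 0.970) and -0.03 without Sham 6.

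**Figure D2:**
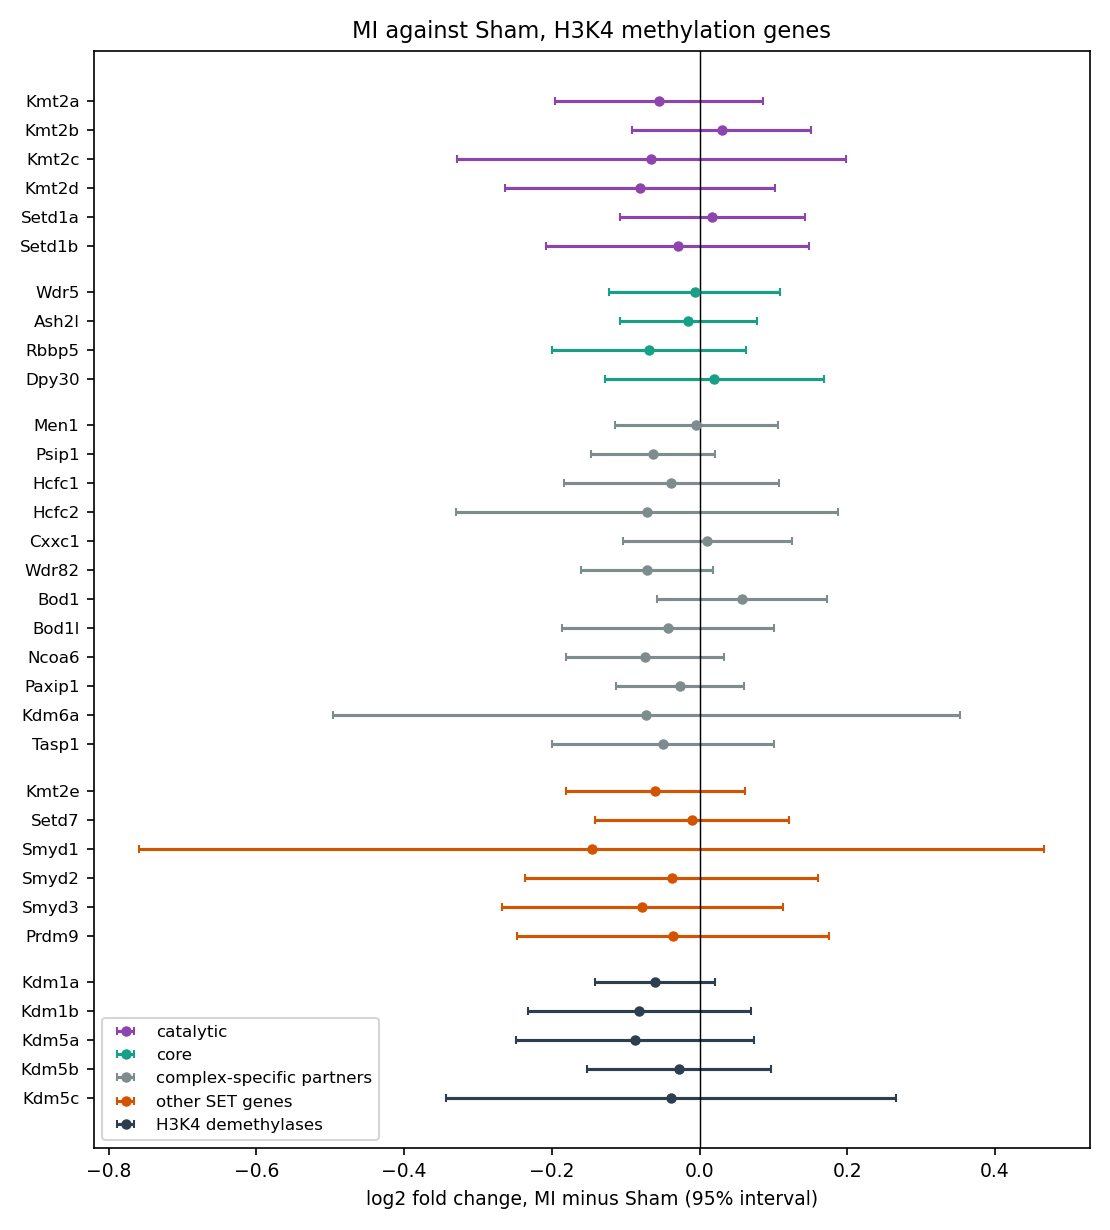
Log2 fold change of MI minus Sham (horizontal axis) for the catalytic, core, partner, other SET and demethylase genes that were tested; points are edgeR estimates and bars their 95% intervals. All intervals cross 0, and the 10 catalytic and core genes lie between -0.08 and 0.03.

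Catalytic genes had a median log2 fold change of -0.04, with 2 positive and 4 negative, and core genes a median of -0.01, with 1 positive and 3 negative. The catalytic genes are long and the core genes mostly short: Kmt2c spans 20.3 kilobases of exons and Dpy30 1.15. Among all tested genes, those with 8 or more kilobases of exons had a median log2 fold change of -0.04 and 68.5% were negative, against a median of 0.03 and 41.0% negative for those of 1 to 2 kilobases. Of the 6 members in the longest class, Kmt2a, Kmt2b, Kmt2c, Kmt2d, Setd1b and Ash2l, only Kmt2b was positive. Exon length and catalytic role cannot be told apart in these 10 genes.

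**Figure D3:**
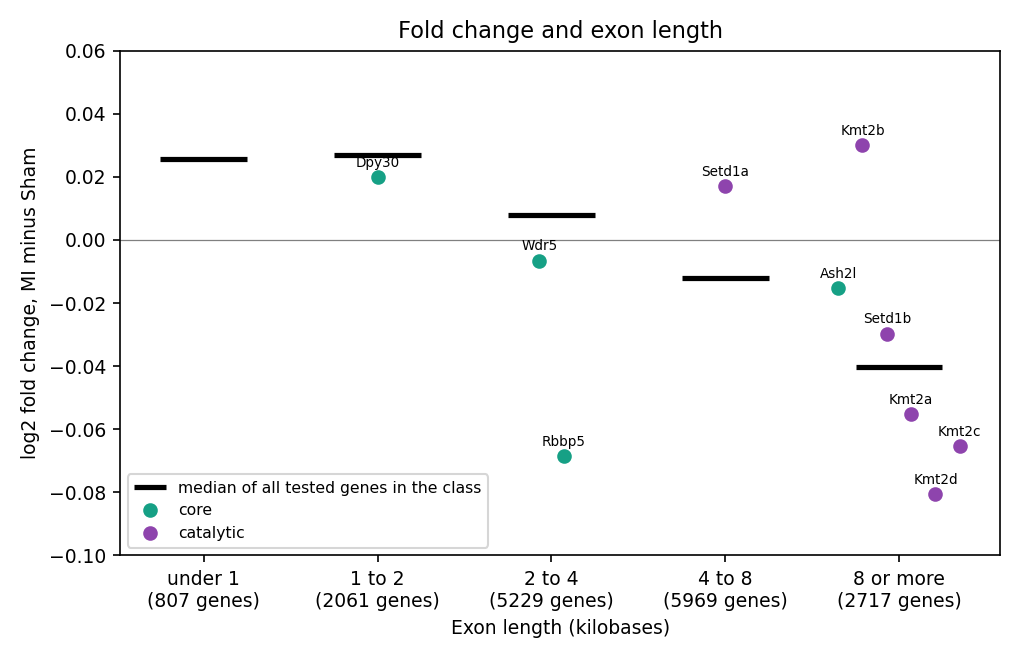
Log2 fold change of MI minus Sham (vertical axis) by class of exon length in kilobases (horizontal axis); black bars are medians of all tested genes in the class and points the 10 genes, spread sideways within a class. The class medians run from 0.03 for 1 to 2 kilobases to -0.04 for 8 or more.

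The other genes of the pathway were not called either. Of 13 partners specific to some of the complexes, 12 were tested (all but Pagr1a), with 2 positive and 10 negative, a median log2 fold change of -0.05 and 0 at an unadjusted p under 0.05. The smallest p belonged to Wdr82, a Setd1 subunit that links it to RNA polymerase II, with 142 ± 4.53 CPM in MI libraries and 149 ± 6.87 in Sham libraries (SD, n = 6 each; log2 fold change -0.07, SE 0.04, edgeR adjusted p 0.727), and to Psip1, which tethers Kmt2a and menin to chromatin (-0.06, SE 0.04, edgeR adjusted p 0.740). Of 6 other SET domain genes linked to H3K4, 0 were positive and 6 negative with a median of -0.05, among them Kmt2e, a relative of the family that lacks clear enzyme activity (-0.06, SE 0.06), and Smyd3 (-0.08, SE 0.09). Of 11 readers of the mark 3 were positive and 8 negative with a median of -0.03, with Ing3 at -0.07 (SE 0.06) and Ing2 at -0.07 (SE 0.07). Of 5 H3K4 demethylases, the enzymes that remove the mark, 0 were positive and 5 negative with a median of -0.06, with Kdm1a at -0.06 (SE 0.04, edgeR adjusted p 0.747) and Kdm5a at -0.09 (SE 0.07, edgeR adjusted p 0.825). Over all tested genes 52.4% were negative, and 68.5% of those with 8 or more kilobases of exons. The signs of these lists were not tested against those shares. The authors' deposited tables of 542 genes higher and 517 lower in MI hold 0 of the 10 members. Beside the 16829 genes tested here, tables of that size would hold few of any 10 genes, so the 0 is near the background. Here edgeR called 0 genes from the counts and DESeq2 7 higher and 4 lower, fewer than the authors list. Their tables give Kdm1a as lower with a log2 fold change of -0.08 and the reader Bptf as lower with -0.12 (the authors' adjusted p 0.0399 and 0.0438). From the counts Bptf was at -0.06 (SE 0.08, edgeR adjusted p 0.915). How many of the listed genes tables of that size would hold by background was not computed, so Kdm1a and Bptf cannot be read as particular to the pathway.

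Per kilobase of exons, the levels fell into a graded order over the 12 libraries. Kmt2a led with 19.3 ± 1.495 CPM per kilobase (SD, n = 12), above Rbbp5 with 13.8 ± 1.10 without overlap. These 2 ranges did overlap when the longest transcript was the length (Kmt2a 17.4 to 22.0, Rbbp5 14.9 to 19.6). Dpy30 with 11.99 ± 0.876 and Kmt2d with 11.975 ± 1.33 did not differ beyond their spread, Dpy30 being higher in 7 of 12 libraries. Kmt2b had 10.6 ± 0.695 and lay below Kmt2d in 10 of 12. Wdr5 with 8.74 ± 0.506 and Kmt2c with 8.27 ± 1.31 overlapped, Wdr5 being higher in 7 of 12. Ash2l had 5.83 ± 0.251, below every Kmt2c value, and Setd1a with 4.83 ± 0.315 and Setd1b with 4.79 ± 0.496 were lowest and changed places in 6 of 12 libraries. With the longest transcript as the length, Ash2l had 14.1 and Dpy30 17.4 CPM per kilobase, above 6 and 8 of the other genes. The place of the core genes thus depends on the transcript model. Kmt2a was first and the Setd1 genes last by both lengths. The place of Setd1a, and any sum that holds it, is uncertain, as 52.3% of its exon bases are shared with 2 other gene models. Summed, the catalytic genes reached 59.0 ± 1.83 CPM per kilobase in MI libraries and 60.6 ± 6.05 in Sham libraries (SD, n = 6 each). Kmt2a made up 32.1% ± 0.588 of it in MI and 32.4% ± 0.673 in Sham, and Kmt2d 19.7% ± 0.668 in MI and 20.2% ± 1.16 in Sham.

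The coefficient of variation between libraries was lower in MI than in Sham for 8 of 10 members, all but Setd1a and Ash2l. Setd1b had 3.57% in MI and 14.7% in Sham, and Kmt2d 4.97% in MI and 14.7% in Sham. The same held for 76.2% of all tested genes and for 80.75% of genes averaging 200 counts or more, so the share among the members was near the background.

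Kmt2a, Kmt2d and Setd1b varied together across the libraries. Pearson's r of log2 CPM over 12 libraries was 0.903 for Kmt2a and Kmt2d (permutation p 5e-05, adjusted over 45 pairs 0.0012; Spearman's rho 0.916, permutation p 8.0e-05, adjusted 0.0036). It was 0.883 for Kmt2d and Setd1b (permutation p 7.0e-05, adjusted 0.0012; rho 0.860, permutation p 0.00064, adjusted 0.0141) and 0.879 for Kmt2a and Setd1b (permutation p 8.0e-05, adjusted 0.0012; rho 0.846, permutation p 0.00094, adjusted 0.0141). All 3 genes were highest in Sham 3, Sham 6 and Sham 5. Kmt2a and Kmt2d were low in Sham 1 and Sham 2, and Setd1b was lowest in Sham 1. Without Sham 3 and Sham 6, the libraries farthest from the median, r was 0.802, 0.782 and 0.772. The adjusted permutation p was then 0.0745 for each, so the pairs no longer passed the threshold. Leaving out extreme libraries narrows the range and leaves fewer libraries, which by itself weakens such a test. Within the groups r was 0.639, 0.568 and 0.847 in the 6 MI libraries and 0.940, 0.927 and 0.913 in the 6 Sham libraries. It was 0.967, 0.865 and 0.906 in the 6 libraries with more Y-linked than Xist counts and 0.919, 0.912 and 0.784 in the 6 with more Xist counts. With deviations from the group means, r was as large, 0.898, 0.896 and 0.892, and the adjusted p, from permutation within groups, was 0.0694, 0.0759 and 0.0666. Tested genes of 8 or more kilobases also moved between libraries, by a median deviation of -0.05 to 0.03 log2 units in MI and -0.04 to 0.07 in Sham. Kmt2d moved by -0.15 to 0.07 in MI and -0.18 to 0.29 in Sham. A median over 2717 genes varies less than a single gene, so the sizes of these ranges cannot be compared. The part of exon length in the shared variation was not tested.

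Of all 45 pairs, 6 passed an adjusted p of 0.05 by Pearson's r, and 3 of these, the pairs above, also by Spearman's rho. No share over pairs of other genes was computed, so this count cannot be read as particular to the members. The others were Kmt2c with Dpy30 (r = -0.766, permutation p 0.00297, adjusted 0.0308; rho -0.664, permutation p 0.0209, adjusted 0.105), Kmt2c with Rbbp5 (r = 0.739, permutation p 0.00342, adjusted 0.0308; rho 0.692, permutation p 0.0165, adjusted 0.0962) and Kmt2b with Wdr5 (r = 0.719, permutation p 0.00663, adjusted 0.0497; rho 0.734, permutation p 0.00831, adjusted 0.0748). Without the 2 libraries farthest from the median of the first gene, r was -0.591, 0.459 and 0.512, and the adjusted permutation p 0.286, 0.508 and 0.422. Sham 6 was among those libraries for both Kmt2c pairs. As leaving out extreme libraries narrows the range, this cannot tell whether the relations rest on them. In the libraries with more Y-linked than Xist counts, r of these 3 pairs was -0.486, 0.361 and 0.730. It was -0.959, 0.970 and 0.769 in the libraries with more Xist counts. Kmt2c also differed between these sets, as given below, and r over 12 libraries does not separate this from variation within a set. Among the 6 pairs of core subunits the median r was -0.10 and 0 passed. Rbbp5 and Dpy30 had r = -0.759 (permutation p 0.0127, adjusted 0.0727; rho -0.573, permutation p 0.0565, adjusted 0.231), and -0.126 without MI 2 and Sham 6 (adjusted 0.881).

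**Figure D4:**
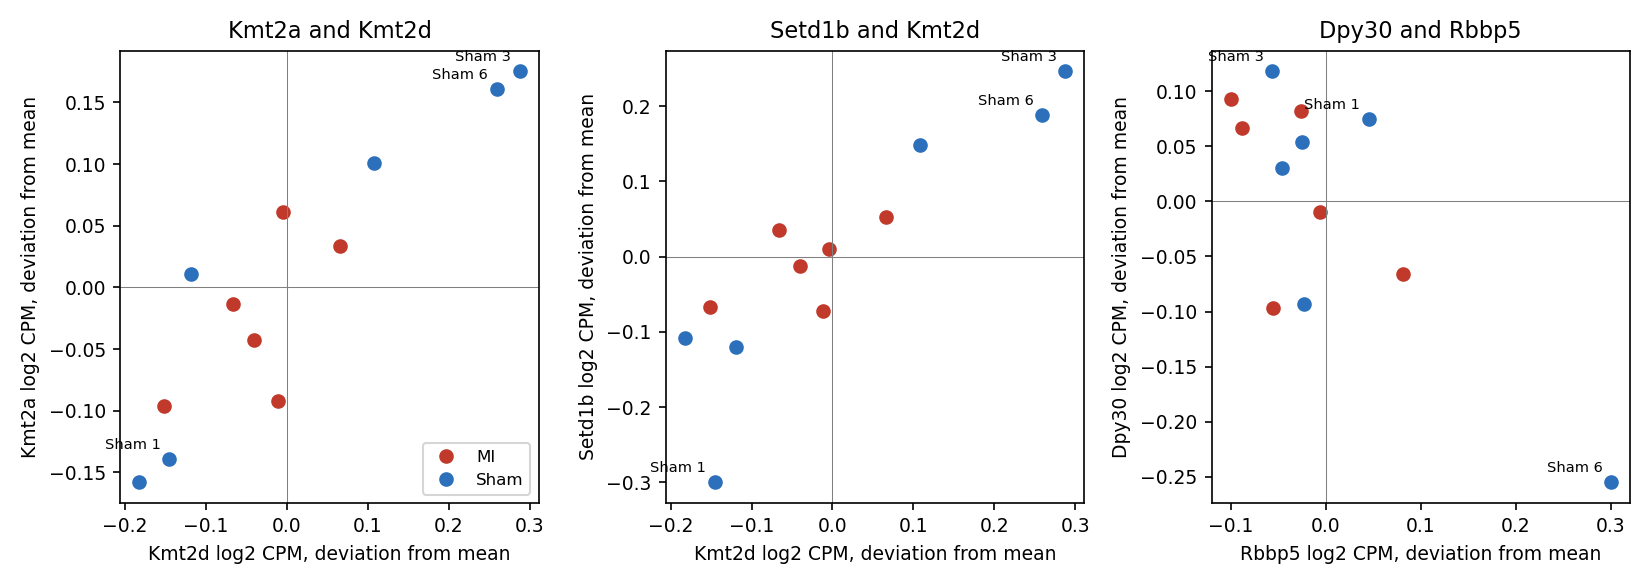
Log2 CPM of gene pairs as deviations from each gene's mean over 12 libraries (both axes); red points are MI and blue points Sham libraries, with Sham 1, Sham 3 and Sham 6 named. Kmt2a and Setd1b rise with Kmt2d (r = 0.903 and 0.883), while Dpy30 against Rbbp5 has r = -0.759 with all libraries and -0.126 without MI 2 and Sham 6.

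Kmt2c differed between libraries with different sex-linked transcripts, a comparison chosen after its values were seen. Sex is not among the labels. Xist, transcribed from the inactive X, was counted more often than Y-linked genes in 3 libraries of each group (MI 2, 5 and 6; Sham 4, 5 and 6), and less often in the rest. Kmt2c had 142, 133 and 158 CPM in the MI libraries and 149.8, 141 and 151 in the Sham libraries with Y-linked counts, against 193, 174 and 184 in the MI libraries and 180.1, 186 and 223 in the Sham libraries with Xist. The sets did not overlap, as for 2.06% of all genes. Kmt2c averaged 146 ± 8.70 CPM with Y-linked counts and 190.1 ± 17.5 CPM with Xist (SD, n = 6 each). The log2 difference was -0.38 (SE 0.06, edgeR adjusted p 0.0268 in a fit with surgery). Kmt2c was the 1 of 10 members called, where 0.297% of all genes were, and the 1 of 10 with an unadjusted p under 0.05, where 18.6% of all genes were. With DESeq2, which called 637 genes against 50 in edgeR, the log2 difference of Kmt2c was -0.38 (adjusted p 5.74e-06). Without Sham 6 it was -0.33 (edgeR adjusted p 0.0211). The dentate marker score also differed between the sets, running from -1.64 to 0.29 log2 units where Y-linked counts prevailed and from -0.24 to 2.25 where Xist did. The median deviation of genes of 8 or more kilobases, the length class of Kmt2c, also moved with the sets, from -0.05 to 0.01 log2 units with Y-linked counts and from 0.0027 to 0.07 with Xist; its part in the Kmt2c difference was not tested. With the dentate score as a covariate the difference was -0.25 (SE 0.07, p 0.00432, edgeR adjusted p 0.490), so the call was lost. That fit called 8 genes in all, against 50 without the score, so the loss was not particular to Kmt2c. The other 9 members were not called (edgeR adjusted p from 0.305 to 0.672).

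**Figure D5:**
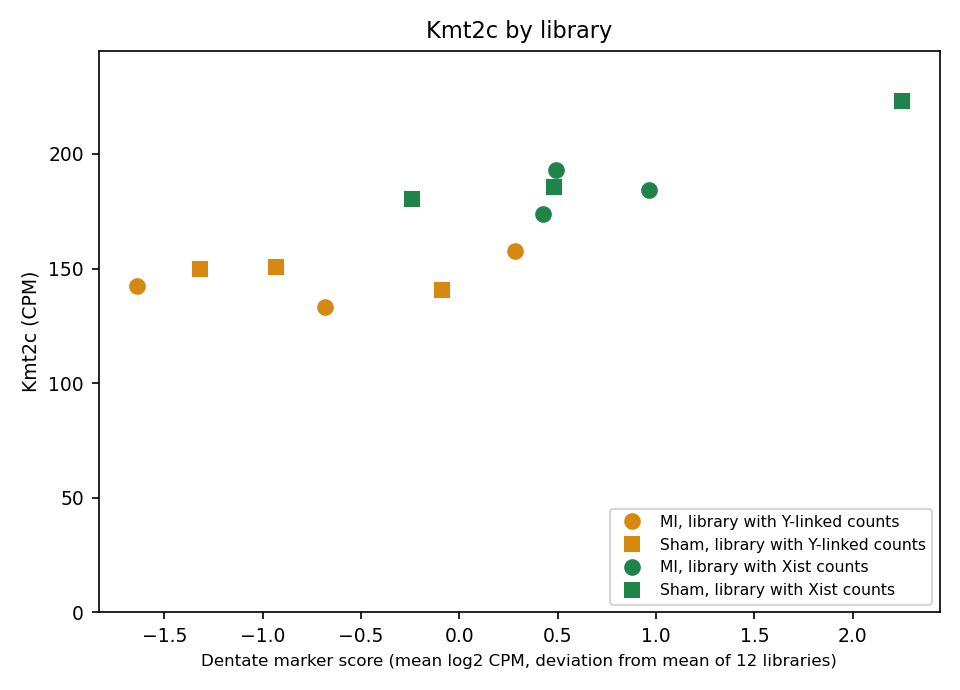
Kmt2c level in CPM (vertical axis, from 0) against the dentate marker score, the mean log2 CPM of 9 markers as a deviation from the mean of 12 libraries (horizontal axis); circles are MI and squares Sham libraries, coloured by sex-linked transcripts. The 6 libraries with Y-linked counts lie between 133 and 158 CPM and the 6 with Xist between 174 and 223.

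The MI effect was not found to differ between the sets for any member. In the interaction test 0 of 10 members passed (edgeR adjusted p from 0.719 to 0.99997) and 0 had an unadjusted p under 0.05, where 0.0114% of the 17472 genes that passed the count filter for this test met the first threshold and 8.29% the other. Kmt2a had a log2 fold change, MI minus Sham, of -0.04 (SE 0.08) among libraries with Y-linked counts, against -0.07 (SE 0.08) among those with Xist. Dpy30 had the largest difference in size, -0.06 (SE 0.09) with Y-linked counts, against 0.10 (SE 0.09) with Xist, a difference of -0.16 (SE 0.13, 95% interval -0.44 to 0.11).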

How the data were processed

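RNA from dissected CA1 was made into polyadenylated RNA libraries and sequenced as 50-base single-end reads, per the labels' protocols. The authors deposited raw gene counts per library; STAR 2.5.2b, featureCounts (Subread 1.5.1), FastQC 0.11.5 and mm10 are named in the submitters' processing notes, while no source used here gives the annotation release or strand setting. The authors' deposited tables of log2 fold changes and adjusted p-values were used for lookup only. Counts were scaled by TMM, filtered with filterByExpr and tested with edgeR 4.0.16 (robust quasi-likelihood, Benjamini-Hochberg over 16829 genes, or 17472 for the interaction); DESeq2 1.42.0 and limma 3.58.1 were alternatives. CPM are counts divided by the TMM-scaled library total. Replicates were compared: chi-square per degree of freedom was at least 6.23 over 30 pairs, so none was merged. Pairs of genes were tested by permutation of libraries (100000 resamples). Context genes were named as the 2 with the smallest p per list. The edgeR fit was tested on simulated data. The members and lists were chosen with earlier results of these data known.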

Additional observations from a re-analysis of the deposited data

Results flagged for a closer look

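Rbbp5 in Sham 6 stood apart from the other Sham libraries, with 66.4 CPM against 55.6 in the nearest, a gap of 0.739 of the group's range where the critical value for 6 samples is 0.625. Chance gives such a gap in about 1 in 20 groups, and 20 groups of 6 libraries were examined here. Without Sham 6 the Rbbp5 log2 fold change, MI minus Sham, was -0.01. Sham 6 also had the highest dentate marker score, 2.25 log2 units above the mean of 12 libraries; its part in the Rbbp5 value was not tested.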

How the results depend on the processing

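Over 25 settings the 10 genes gave 250 fold changes, of which 0 were called and 30 changed sign, the largest of these 0.06 log2 units in size. Leaving out 1 library at a time, the log2 fold change ran from -0.090 to -0.025 for Kmt2a, -0.0054 to 0.071 for Kmt2b, -0.118 to 0.022 for Kmt2c, -0.123 to -0.028 for Kmt2d, -0.010 to 0.048 for Setd1a, -0.087 to 0.019 for Setd1b, -0.036 to 0.015 for Wdr5, -0.041 to 0.0066 for Ash2l, -0.093 to -0.012 for Rbbp5 and -0.026 to 0.045 for Dpy30. Signs also changed with limma-voom for Kmt2b (-0.013), Kmt2c (0.023), Setd1a (-0.0041) and Dpy30 (-0.027). They changed without Sham 1 and Sham 6 for Kmt2b (-0.0058), Setd1a (-0.018), Rbbp5 (0.0061) and Dpy30 (-0.015), and with dentate and meningeal scores as covariates, added after seeing the data, for Kmt2b (-0.012) and Setd1a (-0.016). Wdr5 changed sign with no filter (0.0022), in the libraries with Xist (0.0014) and with the added myelin score (0.012). Setd1a changed sign in the libraries with Xist (-0.035), and Ash2l (0.026) and Dpy30 (-0.063) in those with Y-linked counts. The cause was not tested.

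Over all genes, DESeq2 called 7 higher and 4 lower, and the libraries with Y-linked counts alone 101 higher and 110 lower, against 0 and 0 in edgeR. DESeq2 called 82 genes in the interaction, against 2. Of 45 gene pairs 6 were called, against 0 with deviations from the group means, where r of those 6 was about as large (0.737 to 0.898 in size), and 0 without the 2 farthest libraries. With the dentate score added to the comparison of libraries by sex-linked transcripts, Kmt2d (0.031), Setd1b (0.0050), Rbbp5 (0.022) and Dpy30 (-0.041) changed sign and Kmt2c was -0.25. With the replicate block 0 genes were higher, 0 lower and 0 of the 10 genes called. Same-numbered libraries correlated from -0.350 to 0.405, and 3 of 6 numbers matched best with their own, so the numbers were not taken as pairs. The p-values rest on 6 libraries a group, and intervals cover the spread between these libraries.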
